A study of Mus musculus with 12 samples.

Results

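The thioredoxin and peroxiredoxin system was followed through 10 genes in bone marrow-derived macrophages (BMDMs): the thioredoxins Txn1 and Txn2, the thioredoxin reductases Txnrd1 and Txnrd2, the thioredoxin-binding protein gene Txnip, the sulfiredoxin Srxn1, and the peroxiredoxins Prdx1, Prdx2, Prdx5 and Prdx6. The genes were chosen by name, with earlier results of these data known. Their 18 probes were found through the accession that each array gives for a probe. They are 10 of 32301 genes or transcripts on the array, with 18 of its 41174 probes. All 10 genes were well above background on 12 of 12 arrays, so each was measured in every group.

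RNA came from wild-type (WT) mice and from Keap1 flox/flox::LysM-Cre (KpCKO) mice on a C57BL6/J background, aged 8 weeks. Keap1 is the protein that keeps the transcription factor Nrf2 low, and LysM-driven Cre deletes its floxed gene in myeloid cells. Bone marrow cells of both genotypes were grown with M-CSF for 7 days and then left untreated (Con), given LPS and IFNγ for 6 h (M1) or given IL-4 for 6 h (M2). There were 2 independent cultures, each with 1 WT and 1 KpCKO mouse that gave 1 array per stimulus, so a group is 2 arrays. The mice were male in culture 1 and female in culture 2, so culture and sex cannot be told apart, and the flox and Cre status of the WT mice is not given in the sources used here. Each of the 3 slides held the 4 arrays of 1 stimulus. Genotypes were therefore compared within a slide, whereas stimulus and slide cannot be told apart.

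Thioredoxins are small proteins that reduce disulfide bonds in other proteins, and thioredoxin reductases are selenoenzymes that recharge them with electrons from NADPH. Peroxiredoxins destroy hydrogen peroxide and organic peroxides, most of them by drawing on thioredoxin, and sulfiredoxin rescues peroxiredoxins that peroxide has over-oxidised. Txnip is an arrestin-family protein that binds reduced thioredoxin and limits glucose uptake. In macrophages, Nrf2 is a known activator of several of these genes through antioxidant response elements, short DNA motifs near their promoters.

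The promoters of Srxn1, Prdx1 and Txnrd1 are shown because these 3 genes were higher in KpCKO than in WT and carry such a motif near the gene start. RefSeq windows on GRCm38.p6, of 250 bases before the gene start and 50 bases from it, were held for 9 of the 10 genes, with 3 alternative windows for Txnrd1; Prdx6 had none. They were searched on both strands for the core motif TGACNNNGC and for the variant TGAGNNNGC. At least 1 match lay in the windows of 4 of these 9 genes, in 1 window each. Of all 32851 promoter windows, which belong to 27025 genes, 27.8% held one (12.4% TGACNNNGC and 17.6% TGAGNNNGC). That share counts windows and not genes, so it is no direct yardstick for the 4 of 9. A match is a description of the letters, not a measured binding site. The 250 bases before each start follow, 5′ to 3′ on the plus strand, with the matches in capitals.
Srxn1 (chr2:152105274-152105523): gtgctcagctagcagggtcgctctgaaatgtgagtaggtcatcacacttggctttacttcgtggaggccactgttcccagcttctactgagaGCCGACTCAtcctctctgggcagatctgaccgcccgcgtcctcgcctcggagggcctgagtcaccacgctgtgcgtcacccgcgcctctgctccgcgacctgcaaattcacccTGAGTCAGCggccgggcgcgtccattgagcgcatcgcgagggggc
Prdx1 (chr4:116685349-116685598): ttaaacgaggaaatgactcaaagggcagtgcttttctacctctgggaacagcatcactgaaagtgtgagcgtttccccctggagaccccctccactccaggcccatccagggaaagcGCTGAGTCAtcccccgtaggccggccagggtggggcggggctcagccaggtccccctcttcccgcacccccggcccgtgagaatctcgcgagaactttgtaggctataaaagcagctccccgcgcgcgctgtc
Txnrd1 (chr10:82858956-82859205): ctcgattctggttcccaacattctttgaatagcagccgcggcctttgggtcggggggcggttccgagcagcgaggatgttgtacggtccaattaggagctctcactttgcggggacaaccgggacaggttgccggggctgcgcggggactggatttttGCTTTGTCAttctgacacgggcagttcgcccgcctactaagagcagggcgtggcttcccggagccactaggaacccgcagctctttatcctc
Srxn1 held TGAGTCAGC on the gene's strand, beginning 45 bases before its start, and TGAGTCGGC on the other strand, 158 bases before it. A further match of Srxn1, TGACCTAGC, lay 29 bases into the gene. Prdx1 held TGACTCAGC on the other strand, 133 bases before its start, and TGAGAACGC 16 bases into the gene. Txnrd1 held TGACAAAGC on the other strand of 1 of its 3 windows, 92 bases before that start. The fourth gene with a match was Txn2 (TGAGAGGGC, 187 bases before its start, other strand), a gene with no called genotype difference below.

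The level of a gene on an array is the log2 intensity of its brightest probe less the 75th percentile of that array. The raw 75th percentile lay between 548 and 906 on the M1 arrays and between 966 and 1166 on the others. For Keap1, the targeted gene, KpCKO minus WT was -1.46 log2 units in Con (limma's adjusted p = 0.0333), -1.71 in M1 (0.00766) and -1.81 in M2 (0.0161). For Nqo1, a textbook Nrf2 target, it was 3.23, 3.50 and 3.53. Nos2 was well above background on the 4 M1 arrays and on no other array, and Arg1 went from -6.80 to -5.69 in Con to 3.69 to 4.39 in M2. Of the 6 macrophage markers, 5 had a probe, and all 5 were well above background on 12 of 12 arrays. So were the 4 stromal markers (Col1a1, Col1a2, Col3a1 and Dcn). Their summed log2 level was 4.99 to 5.35 in WT, 5.34 to 5.72 in KpCKO of culture 1 and 4.46 to 4.79 in KpCKO of culture 2. The summed level of 7 neutrophil markers was higher in culture 1 than in culture 2 in every group. In log2 it was 3.70 to 4.05 in culture 1 and 1.66 to 3.29 in culture 2. Signals were summed before the log, so S100a9 (1.22 to 3.80) and S100a8 (-0.88 to 1.47) made up most of it. The highest level among the other markers was -0.90, for Ltf. Of the 7, 6 (S100a8, S100a9, Ltf, Camp, Mpo and Ngp) were well above background on 11 or 12 arrays and the granule enzyme gene Elane on 0.

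**Figure D1:**
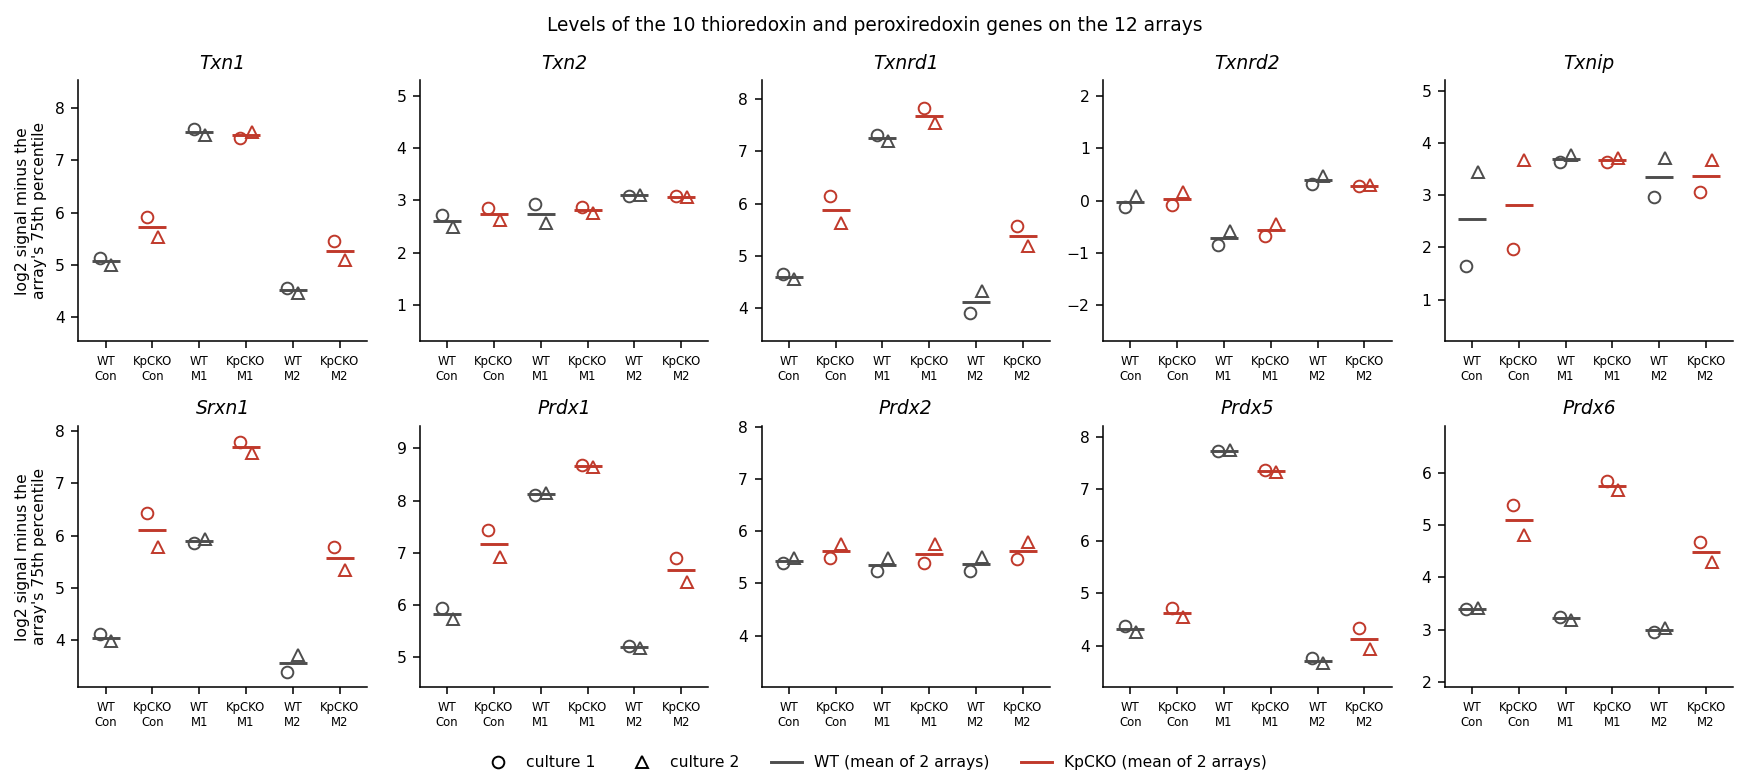
Level of each gene (log2 signal minus the array's 75th percentile, every panel spanning 5 log2 units) in the 6 groups of 2 arrays, with circles for culture 1, triangles for culture 2 and a line at the group mean. Txn1, Txnrd1, Prdx1 and Prdx5 sat highest in the M1 groups of both genotypes, Prdx6 sat apart by genotype in every stimulus, Prdx2 and Txn2 stayed within 0.62 log2 units over all arrays, and the 2 culture 1 arrays of Con stood low for Txnip.

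The first question was what loss of Keap1 does to the system in unstimulated cells. In Con, 4 of the 10 genes were higher in KpCKO than in WT at limma's adjusted p under 0.05: Srxn1, Prdx6, Prdx1 and Txnrd1. Over all 22351 genes tested, 1.4% were called higher and 0.823% lower. Of the 10 genes, limma called 0 lower, and 0 were lower at an unadjusted p under 0.05. The median difference of the 10 genes was 0.48 log2 units, beside 0.00 over all genes tested. In RNA of a whole culture, fewer cells of a type and less RNA per cell cannot be told apart.

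Srxn1, whose enzyme repairs over-oxidised peroxiredoxins, had levels of 4.11 (culture 1) and 3.98 (culture 2) in WT Con and of 6.43 and 5.78 in KpCKO Con. Both KpCKO arrays lay above both WT arrays. The difference was 2.06 ± 0.22 log2 units (SE), or 4.16-fold, with a 95% interval of 1.53 to 2.59 (limma's adjusted p = 0.00758). Its other 2 probes gave differences of 1.92 and 1.97 in Con.

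Prdx6, the 1-Cys peroxiredoxin that takes electrons from glutathione rather than thioredoxin, had levels of 3.40 and 3.41 in WT Con and of 5.38 and 4.82 in KpCKO Con. The groups did not overlap, and the WT arrays had an SD of 0.0113 (n = 2). The difference was 1.70 ± 0.17 log2 units, or 3.24-fold (95% interval 1.29 to 2.1, limma's adjusted p = 0.00551), and the other 2 Prdx6 probes gave 1.76 and 1.93. Over the 12 arrays, the gene nearest to Prdx6 in pattern was Prdx6b, a related sequence of Prdx6 (Pearson r = 0.994, named after its values were seen), and signal that the 2 genes may share on a probe cannot be told apart.

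Prdx1, the abundant cytosolic 2-Cys peroxiredoxin, had levels of 5.94 and 5.74 in WT Con and of 7.43 and 6.91 in KpCKO Con. Txnrd1, the cytosolic reductase that recharges Txn1, had levels of 4.65 and 4.55 in WT Con and of 6.13 and 5.63 in KpCKO Con. For both genes the KpCKO arrays lay above the WT arrays in each culture. The difference was 1.33 ± 0.17 log2 units for Prdx1 (2.52-fold, limma's adjusted p = 0.0127). It was 1.28 ± 0.22 log2 units for Txnrd1 (2.43-fold, limma's adjusted p = 0.0365).

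The differences of all 4 genes were larger in culture 1 than in culture 2, for example 2.31 and 1.80 log2 units for Srxn1 and 1.98 and 1.41 for Prdx6. The summed neutrophil marker level, mostly S100a9 and S100a8, was also higher in culture 1 (4.05 and 4.01 in WT and KpCKO Con, against 2.88 and 2.35 in culture 2). The summed stromal marker level was 5.11 in WT and 5.72 in KpCKO Con of culture 1, and 5.35 and 4.79 in culture 2. The part of either marker list in these differences was not tested. With groups of 2, the calls depended on single arrays. Txnrd1 lost its call without any one of the 4 Con arrays (limma's adjusted p between 0.0905 and 0.238). Srxn1 lost it without either WT array or the KpCKO array of culture 1 (0.0761, 0.0674 and 0.0581), as did Prdx1 (0.113, 0.0978 and 0.0967). Prdx6 lost it without the WT array of culture 1 (0.0636). The differences themselves stayed between 1.07 and 2.34 log2 units when any 1 of these arrays was left out. Where only the 4 Con arrays were fitted, limma called 0 of the 10 genes.

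Txn1, the cytosolic thioredoxin, had levels of 5.14 and 5.00 in WT Con and of 5.91 and 5.53 in KpCKO Con. The KpCKO arrays lay above the WT arrays, with a difference of 0.65 log2 units (95% interval 0.32 to 0.98) that missed the threshold (limma's adjusted p = 0.0765). Prdx5, an atypical 2-Cys peroxiredoxin of mitochondria, peroxisomes and cytosol, differed by 0.31 log2 units (0.03 to 0.59, limma's adjusted p = 0.301). The differences of Txn2 and Txnrd2, the mitochondrial thioredoxin and its reductase, were 0.14 and 0.06 log2 units, with intervals of -0.15 to 0.42 and -0.17 to 0.30. Prdx2, a cytosolic 2-Cys peroxiredoxin best known from red blood cells, differed by 0.19 (-0.04 to 0.42).

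**Figure D2:**
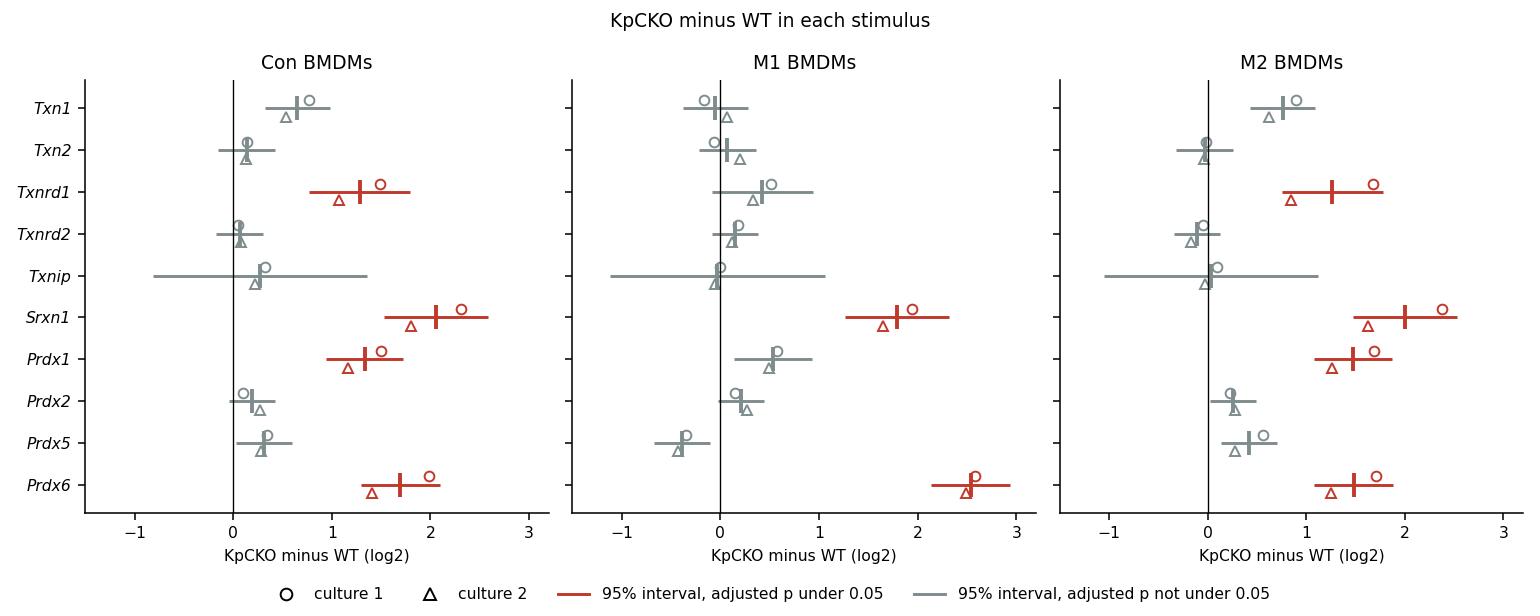
Difference of KpCKO minus WT (log2) for each gene in Con, M1 and M2 BMDMs, with circles and triangles for cultures 1 and 2, a tick for the fitted difference and a line for its 95% interval, red where limma's adjusted p is under 0.05. Srxn1 and Prdx6 were red in all 3 stimuli, while Prdx1 and Txnrd1 were red in Con and M2, where their differences lay between 1.26 and 1.47, and grey in M1 (0.54 and 0.42).

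The next question was whether the genotype difference was there in M1-stimulated cells. In M1, 2 of the 10 genes were higher in KpCKO, Srxn1 and Prdx6, and limma called 0 lower, with 1 lower at an unadjusted p under 0.05. Of 22341 genes tested, 7.45% were called higher and 8.6% lower. That split moved with the scaling, as 46.4% of all calls were higher here and 59.9% after quantile normalization. The median difference of the 10 genes was 0.18 log2 units, beside -0.09 over all genes. Macrophage markers moved with genotype here: 3 of 5 were called lower in KpCKO M1 (0 of 5 in Con and in M2), with a median of -0.40 and a summed log2 level of 8.78 to 8.97 against 9.10 to 9.54 in WT M1. The same markers also changed with the stimulus. In M1 against Con, 4 of 5 were called higher in WT (median 0.795, beside 34.5% of all genes called higher). In KpCKO it was 3 of 5 (median 0.572, beside 24.8%). The part of these markers in the M1 genotype differences and in the interaction below was not tested.

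Prdx6 had levels of 3.25 and 3.19 in WT M1 and of 5.84 and 5.68 in KpCKO M1. The groups stood further apart than those of any other of the 10 genes in this comparison. The difference was 2.54 ± 0.17 log2 units, or 5.81-fold (95% interval 2.14 to 2.94, limma's adjusted p = 0.000692). Srxn1 had levels of 5.86 and 5.94 in WT M1 and of 7.80 and 7.59 in KpCKO M1, a difference of 1.79 ± 0.22 log2 units, or 3.46-fold (limma's adjusted p = 0.00544). Both genes kept their call without any one of the 4 M1 arrays. The other probes gave 1.79 and 2.25 for Prdx6, and 1.67 and 1.71 for Srxn1. The dimmest Prdx6 probe differed between cultures (1.13 and 2.46).

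Prdx1 had levels of 8.11 and 8.15 in WT M1 and of 8.68 and 8.65 in KpCKO M1. The KpCKO arrays were higher, by 0.54 log2 units (95% interval 0.14 to 0.93), which did not pass the test (limma's adjusted p = 0.0703) but did after quantile normalization (0.85 log2 units, 0.0121). For Txnrd1 the WT levels were 7.31 and 7.20 and the KpCKO levels 7.82 and 7.53, a difference of 0.42 (-0.09 to 0.94, limma's adjusted p = 0.21). Txn1 levels overlapped between the genotypes, at 7.60 and 7.49 in WT and 7.43 and 7.55 in KpCKO, with a difference of -0.05 (-0.38 to 0.28). Prdx5 was the one gene of the 10 whose KpCKO arrays both lay below both WT arrays in M1. Its levels were 7.72 and 7.75 in WT and 7.37 and 7.32 in KpCKO, a difference of -0.39 (-0.67 to -0.11). That difference missed the threshold (limma's adjusted p = 0.0682) and was -0.16 (0.318) after quantile normalization. It passed with a filter on all 12 arrays (limma's adjusted p = 0.0441) and with trended and robust variances (0.031).

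In M2-stimulated cells, 4 of the 10 genes were higher in KpCKO (1.29% of 22350 genes were called higher), and they were the 4 genes of Con. Limma called 0 of the 10 lower (0.64% of all genes), and 0 were lower at an unadjusted p under 0.05. Srxn1 had levels of 3.40 and 3.72 in WT M2 and of 5.78 and 5.35 in KpCKO M2, a difference of 2.0 ± 0.22 log2 units, or 4.01-fold (limma's adjusted p = 0.00917). Prdx6 had levels of 2.96 and 3.04 in WT M2 and of 4.67 and 4.29 in KpCKO M2, a difference of 1.48 ± 0.17 log2 units (2.79-fold, limma's adjusted p = 0.00973). In both genes every KpCKO array lay above every WT array.

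Prdx1 had levels of 5.22 and 5.17 in WT M2 and of 6.9 and 6.44 in KpCKO M2, which is 1.47 ± 0.17 log2 units apart (2.77-fold, limma's adjusted p = 0.00942). Txnrd1 had levels of 3.90 and 4.33 in WT M2 and of 5.58 and 5.18 in KpCKO M2, which is 1.26 ± 0.22 log2 units apart (2.40-fold, limma's adjusted p = 0.0403). The Txnrd1 difference was 1.68 in culture 1 and 0.85 in culture 2, so the cultures differed in size but not in direction. Txn1 stood at 0.76 log2 units (95% interval 0.43 to 1.09) and just missed the threshold (limma's adjusted p = 0.0504), which it passed after quantile normalization (0.0387). Prdx5 differed by 0.42 (0.14 to 0.70, limma's adjusted p = 0.175), Prdx2 by 0.26 (0.02 to 0.49, 0.303), and Txn2 and Txnrd2 by -0.03 and -0.11.

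The M2 calls also depended on single arrays. Without the WT array of culture 1 or the KpCKO array of culture 1, 0 of the 10 genes were called, with limma's adjusted p between 0.0672 and 0.148 in the former case and between 0.0712 and 0.232 in the latter. Without either array of culture 2, Srxn1 was called in both cases, Prdx6 in neither (0.0501 and 0.051), Prdx1 without the KpCKO array only (0.059 without the WT array) and Txnrd1 without the WT array only (0.126 without the KpCKO array). The differences of the 4 genes stayed between 0.91 and 2.30 log2 units throughout.

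The second set of comparisons asked how the system answered M1 stimulation. In WT cells, 5 of the 10 genes rose (Prdx5, Txnrd1, Txn1, Prdx1 and Srxn1) and 1 fell (Txnrd2). M1 changed much of the transcriptome, with 34.5% of 22343 genes called higher and 28.7% lower. The median over all genes was 0.13 log2 units and moved by -0.21 to -0.08 after quantile normalization, while the median of the 10 genes was 1.5 and 0.91. The 5 rises were smaller after quantile normalization, at 2.65 log2 units for Prdx5, 1.85 for Txnrd1, 1.67 for Txn1, 1.37 for Prdx1 and 1.10 for Srxn1, and each kept its call. Stimulus and slide cannot be told apart in these values.

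Prdx5 rose most, from 4.37 and 4.26 in WT Con to 7.72 and 7.75 in WT M1. The difference was 3.42 ± 0.12 log2 units (limma's adjusted p = 4.5e-06). Txnrd1 rose from 4.65 and 4.55 to 7.31 and 7.20, by 2.66 ± 0.22 log2 units or 6.30-fold (6.67e-05). In each case the cultures moved alike, by 3.35 and 3.49 log2 units for Prdx5 and by 2.66 and 2.65 for Txnrd1.

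Txn1 rose from 5.14 and 5.00 to 7.60 and 7.49, a difference of 2.47 ± 0.14 log2 units or 5.55-fold (limma's adjusted p = 1.65e-05). Prdx1 rose from 5.94 and 5.74 to 8.11 and 8.15, by 2.29 ± 0.17 log2 units or 4.89-fold (4.22e-05). Srxn1 rose from 4.11 and 3.98 to 5.86 and 5.94, by 1.85 ± 0.22 log2 units or 3.61-fold (0.000384). So the cytosolic thioredoxin, its reductase, 2 peroxiredoxins and the sulfiredoxin all rose in M1.

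Of the mitochondrial pair, 1 gene fell and the other did not pass the test. Txnrd2 fell from -0.13 and 0.08 in WT Con to -0.86 and -0.57 in WT M1, a difference of -0.69 ± 0.10 log2 units (limma's adjusted p = 0.000851), and its other probe gave -0.80. Txn2 went from 2.72 and 2.49 to 2.94 and 2.56, with a difference of 0.14 (95% interval -0.15 to 0.43). Prdx2 differed by -0.07 (-0.30 to 0.16) and Prdx6 by -0.18 (-0.59 to 0.22) in the same comparison. After quantile normalization these became -0.82 for Prdx2 (limma's adjusted p = 0.00062) and -0.62 for Prdx6 (0.0121), both past the threshold, so whether they fell in WT M1 depended on the scaling. Leaving out any 1 of the 4 arrays ended none of the 6 calls.

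In KpCKO cells, 6 of the 10 genes rose in M1 (24.8% of 22346 genes were called higher) and 1 fell (25.5% lower). The 6 were the 5 genes that rose in WT and Prdx6. Prdx5 rose from 4.71 and 4.54 in KpCKO Con to 7.37 and 7.32 in KpCKO M1, by 2.72 ± 0.12 log2 units or 6.59-fold (limma's adjusted p = 1.34e-05). Txnrd1 rose by 1.80, Txn1 by 1.77, Srxn1 by 1.59 and Prdx1 by 1.49 log2 units. After quantile normalization these 5 rises were 2.19 (Prdx5), 1.21, 1.20, 1.01 and 0.97 log2 units, and each kept its call. Txnrd2 fell by 0.61 log2 units (limma's adjusted p = 0.00217).

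Prdx6 rose in KpCKO M1 by 0.66 ± 0.17 log2 units (1.58-fold, limma's adjusted p = 0.0158), from 5.38 and 4.82 to 5.84 and 5.68. That call was lost after quantile normalization (0.14 log2 units, adjusted p = 0.507). It was also lost without the KpCKO Con array of culture 2 (0.43, 0.105) and without the KpCKO M1 array of culture 1 (0.67, 0.0588) or culture 2 (0.65, 0.0735).

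The difference between the genotypes' M1 responses was tested as an interaction. Limma called 0 of the 10 genes, with 5 at an unadjusted p under 0.05, and 0.116% of 22341 genes were called in either direction, while 16.4% of them had an unadjusted p under 0.05. The 5 genes were Txnrd1 (-0.86 log2 units, 95% interval -1.58 to -0.14), Prdx1 (-0.80, -1.35 to -0.24), Txn1 (-0.70, -1.17 to -0.24) and Prdx5 (-0.70, -1.10 to -0.30), where the KpCKO response was the smaller, and Prdx6 (0.84, 0.28 to 1.41), where it was the larger. Limma's adjusted p lay between 0.161 and 0.252 for these 5. Over all genes the median of this interaction was -0.07, and quantile normalization moved it by 0.10. After it the values were nearer to 0, at -0.64 for Txnrd1, -0.40 for Prdx1, -0.46 for Txn1, -0.46 for Prdx5 and 0.76 for Prdx6. The Prdx6 probes did not agree on the value, which was 0.84, 0.49 and -0.13 from the brightest to the dimmest. For Srxn1 the interaction was -0.27 (-1.02 to 0.49), and the sign of that value changed under 1 of the alternatives tried.

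**Figure D3:**
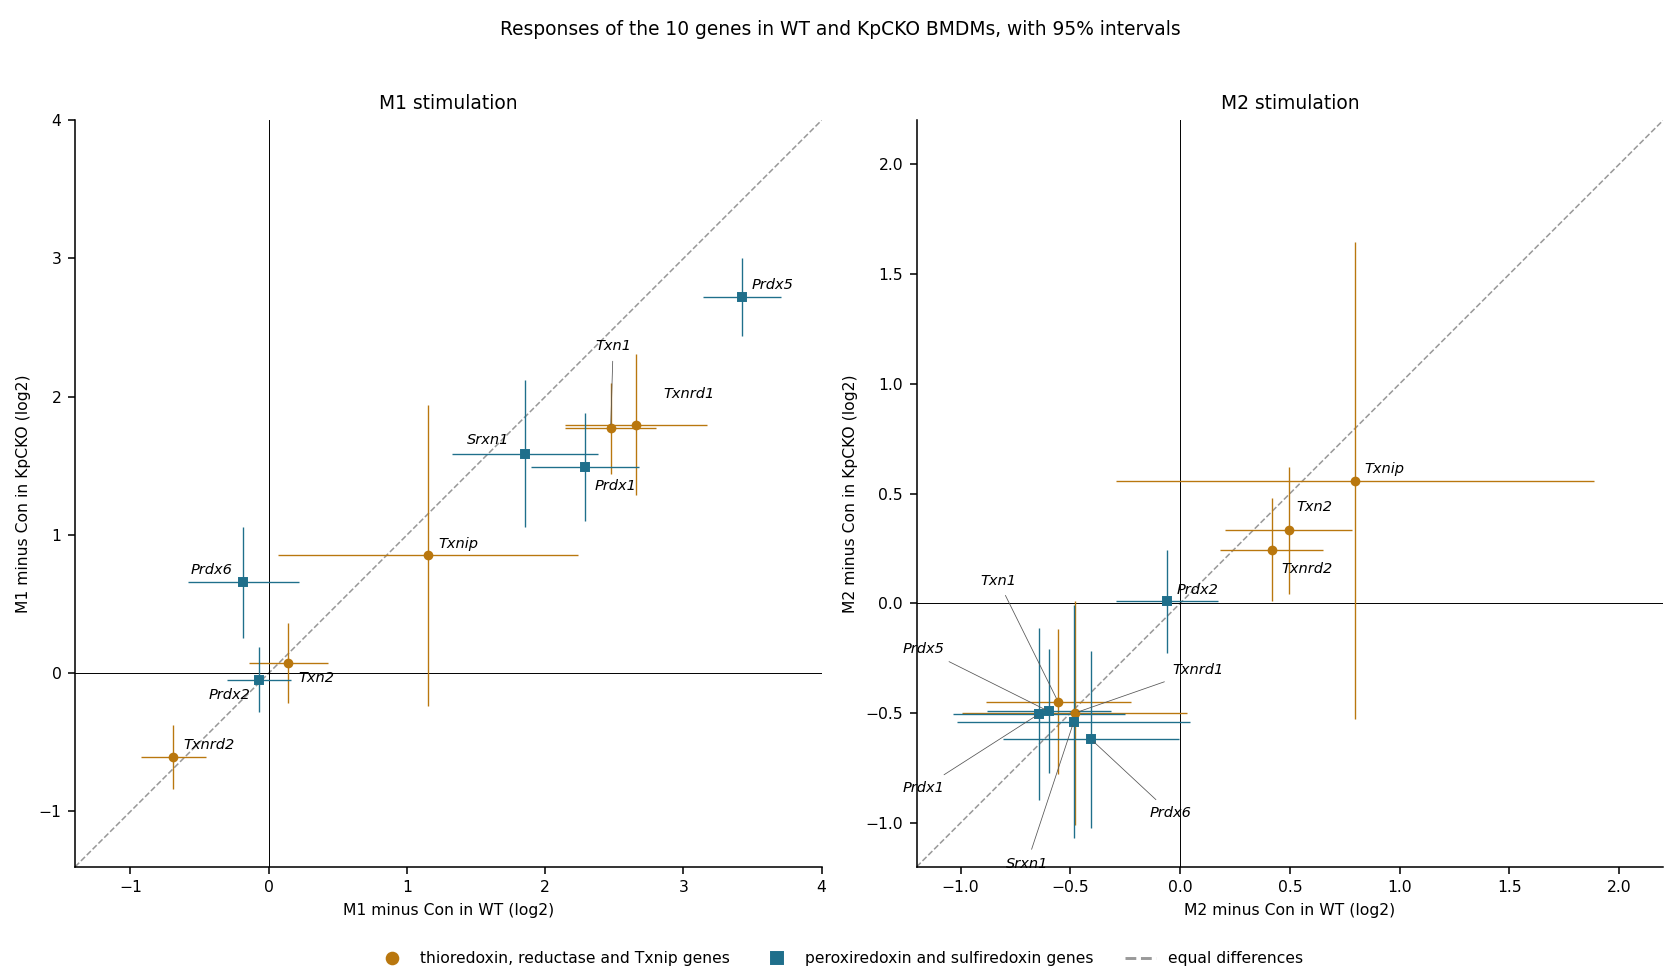
Difference from Con (log2) in WT on the x axis and in KpCKO on the y axis for M1 (left) and M2 (right), with 95% intervals and a dashed line where both genotypes differ equally. In M1 the points of Prdx5, Txnrd1, Txn1 and Prdx1 lay below the line and that of Prdx6 above it, with no interaction past limma's adjusted threshold, and in M2 all 10 points lay near the line.

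The last set of comparisons concerned M2 stimulation, where the differences of the 10 genes in WT lay between -0.64 and 0.80 log2 units. In WT cells, 2 of the 10 rose (8.63% of 22351 genes were called higher), the mitochondrial genes Txn2 and Txnrd2, and 3 fell (8.24% lower), Prdx1, Prdx5 and Txn1. Txn2 rose from 2.72 and 2.49 in WT Con to 3.09 and 3.11 in WT M2, by 0.50 ± 0.12 log2 units (limma's adjusted p = 0.0363). Txnrd2 rose from -0.13 and 0.08 to 0.32 and 0.47, by 0.42 ± 0.10 log2 units (0.0322). The other Txnrd2 probe gave 0.32.

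Prdx1 fell from 5.94 and 5.74 to 5.22 and 5.17, a difference of -0.64 ± 0.17 log2 units (limma's adjusted p = 0.0416). Prdx5 fell by 0.60 log2 units (0.0183) and Txn1 fell by 0.56 (0.0382), with -0.58 and -0.53 in the cultures for Txn1. Txnrd1 and Srxn1 lay lower by similar amounts without passing the test, at -0.48 (95% interval -0.99 to 0.03) and -0.49 (-1.02 to 0.05). All 5 calls were lost without any one of the 4 arrays (limma's adjusted p between 0.0807 and 0.213), and also without culture as a block (0.0565 to 0.176).

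In KpCKO cells limma called 1 of the 10 genes in M2, Prdx5, which fell by 0.49 log2 units (adjusted p = 0.0461), beside 4.58% of 22350 genes called lower and 5.69% higher. It called 0 higher, with 2 at an unadjusted p under 0.05. The Prdx5 call was lost without any one of the 4 arrays (0.0551 to 0.234), whereas quantile normalization added Txn1, Prdx1 and Prdx6 as lower. For the M2 interaction limma called 0 of the 10 genes, 0 also at an unadjusted p under 0.05, beside 0.00895% of all genes.

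Txnip levels differed between the cultures. In Con it was at 1.64 in WT and 1.96 in KpCKO of culture 1, and at 3.45 and 3.67 in culture 2. In M1 all 4 arrays lay between 3.63 and 3.77. In M2 the culture 1 arrays were at 2.97 and 3.07 and the culture 2 arrays at 3.71 and 3.68. Culture 1 was thus low in Con in both genotypes, lower in M2 than culture 2, and level with it in M1.

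No genotype difference of Txnip passed the test, at 0.27 log2 units in Con (95% interval -0.82 to 1.36), -0.03 in M1 and 0.03 in M2, and within a culture the genotypes differed by at most 0.33. The M1 difference in WT was 1.99 log2 units in culture 1 and 0.32 in culture 2, which gave 1.15 ± 0.46 on the mean (limma's adjusted p = 0.0618). The second Txnip probe gave the same picture, 2.04 and 0.33. Without the WT Con array of culture 2 the M1 difference in WT was 1.73 log2 units. With all arrays kept, it passed with a filter on all 12 arrays (limma's adjusted p = 0.0471) and with trended and robust variances (0.0424). The summed neutrophil marker level in Con, 4.05 and 4.01 in culture 1 against 2.88 and 2.35 in culture 2, moved the other way, and its part was not tested.

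Some of the 10 genes followed each other closely over the 12 arrays, which share 6 groups and 2 cultures and are not independent points. Pearson's r was 0.99 for Txnrd1 with Prdx1, 0.984 for Txn1 with Prdx5 and 0.975 for Txn1 with Txnrd1. The lowest value was -0.949, for Txnrd2 with Prdx5. Among 12140 other named genes well above background on all arrays, those nearest to Srxn1 were Esd (r = 0.982), Serpinb12 (0.979) and Zwint (0.977). Those nearest to Txnrd1 were Exoc3l4 (0.987), Procr (0.985) and Tbc1d23 (0.984). For Prdx1 they were Tbc1d23 (0.989), Bst1 (0.982) and Slc7a11 (0.981), the last of them the cystine transporter gene that feeds glutathione synthesis. For Txnip they were Atp6v0b (0.926), Chchd1 (0.87) and Slc25a46 (0.852).

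The genes around the system were described from fixed lists. The partner list held 22 genes for other peroxiredoxins, thioredoxin-fold proteins, glutaredoxins, methionine sulfoxide reductases and sestrins, all of them tested. Over all genes tested, the shares called higher and lower in KpCKO were 1.4% and 0.823% in Con, 7.45% and 8.6% in M1, and 1.29% and 0.64% in M2. In Con, limma called 0 of the 22 in either direction between the genotypes (2 higher and 1 lower at an unadjusted p under 0.05), which lies near those shares. Their median difference in Con was 0.06 log2 units. In M2 it called 1, Msrb1, a selenoprotein that repairs oxidised methionine, which was higher in KpCKO by 0.74 log2 units (adjusted p = 0.0403). In M1, 2 of the 22 were higher in KpCKO, Msrb1 (0.47, limma's adjusted p = 0.0499) and the mitochondrial glutaredoxin Glrx2 (0.34, 0.0483). The 3 that were lower were the glutaredoxin Glrx (-0.83, 0.0369), Txndc17 (-0.51, 0.0177) and Txndc9 (-0.41, 0.0359). In a list of 22 genes these M1 counts also lie near the shares over all genes. The direction of that list in M1 depended on the scaling, with 3 higher and 0 lower after quantile normalization.

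In the M1 response of WT cells, 4 of the 22 partner genes rose and 10 fell, and after quantile normalization 2 rose and 12 fell. Over all genes, 34.5% were called higher and 28.7% lower in WT M1, and after quantile normalization 6524 genes were called higher and 7940 lower. The largest rises were those of Txndc17 (2.53 log2 units), Glrx (1.04) and Txndc9 (0.89). The largest falls were those of the stress-induced sestrin Sesn1 (-4.83) and of 2 methionine sulfoxide reductases, the mitochondrial Msrb2 (-3.14) and Msrb1 (-1.42). In KpCKO cells the same list had 3 rises and 9 falls in M1, beside 24.8% of all genes called higher and 25.5% lower. In M2, 1 rose in WT, Glrx (1.52), and 4 fell, with Msrb1 (-1.38), Msrb2 (-1.33) and Sesn1 (-0.81) the largest. Over all genes, 8.63% were called higher and 8.24% lower in WT M2. The median of the list was -0.31 in WT M1, beside 1.5 for the 10 genes and 0.13 for all genes.

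Thioredoxin reductases carry selenocysteine, and the 5 genes that make or insert it had 0 of 5 genotype differences called by limma in Con and in M2 (1 and 3 at an unadjusted p under 0.05). In M1, Pstk, the kinase of the selenocysteine pathway, was higher in KpCKO by 0.50 log2 units (adjusted p = 0.0388). It fell by 2.25 log2 units in WT M1, whereas Sephs2, which makes the selenium donor, fell by 1.18 in WT M2. Of these 5 genes, 1 was called higher and 2 lower in WT M1, beside 34.5% and 28.7% of all genes. In WT M2 the counts were 0 and 1, beside 8.63% and 8.24%. Of the 7 relatives and regulators of Txnip, limma called 0 between the genotypes in Con, M1 or M2 (1 each at an unadjusted p under 0.05). In lists of 5 and 7 genes, 0 calls lie near the shares over all genes given above. Of the 7 Txnip relatives and regulators, 3 were called higher and 2 lower in WT M1, and 2 and 1 in WT M2, beside the same shares of all genes. Among them, the arrestin-domain gene Arrdc4 rose by 3.87 log2 units in WT M1 while Arrdc3 fell by 3.28. In WT M2 the differences of Arrdc4 and Arrdc3 were 1.0 and -1.92. The M1 difference of Arrdc4 was 4.3 in culture 1 and 3.43 in culture 2.

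Of the 6 genes for proteins that thioredoxin acts on or that bind it or Txnip, 5 had a probe. In WT M1, 1 of the 5 was called higher and 2 lower, beside 34.5% and 28.7% of all genes. In WT M2, 1 was called higher and 1 lower, beside 8.63% and 8.24%. Nlrp3, the inflammasome sensor, rose by 4.0 log2 units in WT M1 and had a KpCKO minus WT difference of -0.83 in M1 (limma's adjusted p = 0.00653). Apex1, a DNA repair enzyme that hands electrons from thioredoxin to transcription factors, was higher in KpCKO M1 by 0.45 (0.0375) and rose by 1.61 in WT M2. Rrm1, the large subunit of ribonucleotide reductase, fell by 1.36 in WT M1. Map3k5, the kinase that thioredoxin holds inactive, fell by 1.17 in WT M2.

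**Figure D4:**
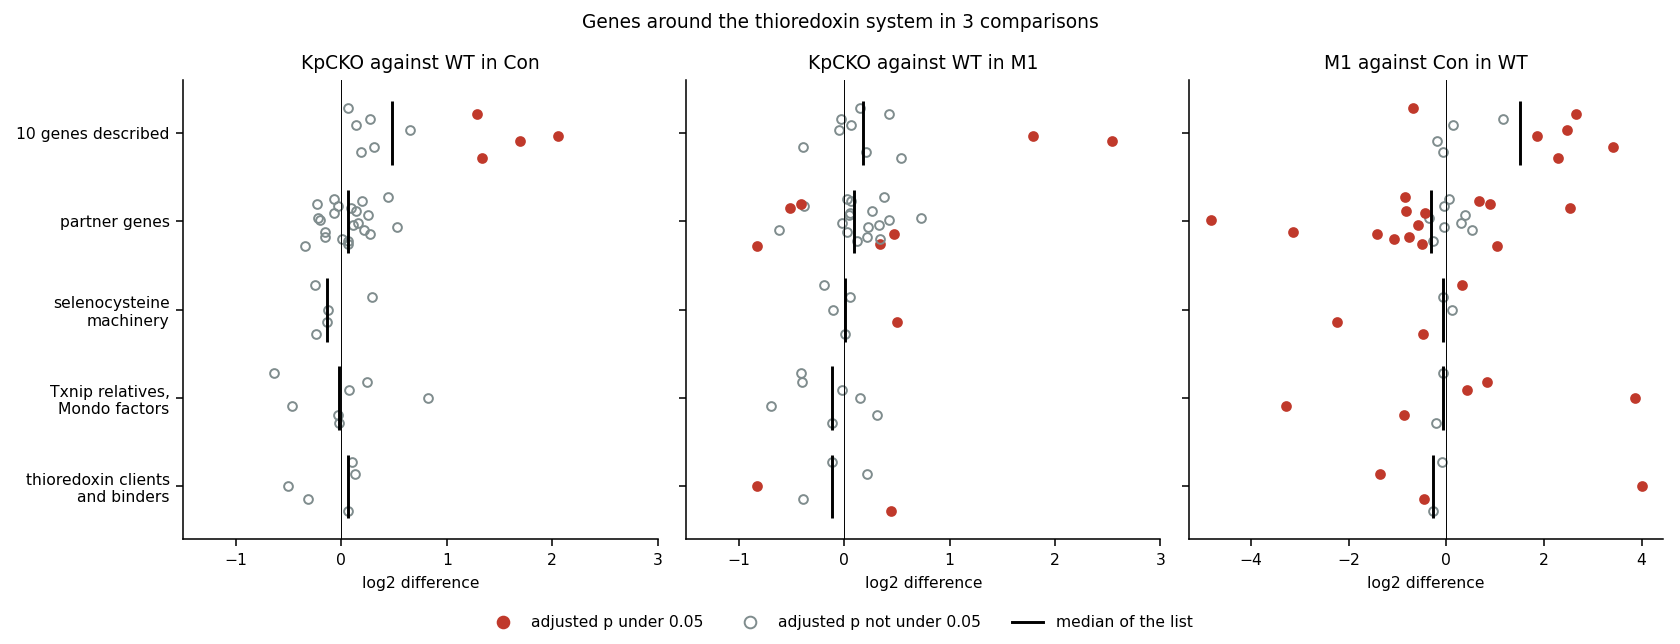
Log2 difference of each tested gene of 5 lists in KpCKO against WT in Con (left), KpCKO against WT in M1 (middle) and M1 against Con in WT (right), filled red where limma's adjusted p is under 0.05, with a line at the list's median. In Con the 4 red points are the 4 called members of the 10-gene list and 0 are in the other lists, while in WT M1 the median of the 10 genes is 1.5 and that of the partner genes -0.31. The 10 genes and the lists were chosen with earlier results of these data known, so the contrast between them is not a test.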

How the data were processed

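RNA of 12 BMDM samples was hybridised to 1-colour Agilent arrays. Scans were read by the authors in Agilent's software (Feature Extraction 10.7.3.1, array design build mm9). They deposited background-subtracted intensity values with quality flags, and a matrix of log2 values that equals these intensities scaled to the 75th percentile and centred per probe (slopes 0.999623 to 1.00036 over 40749 probes).

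Outlier spots were left out, spots of a probe averaged, and log2 intensities set relative to the array's 75th percentile. Of 41174 probes, 26695 were matched by accession to 18221 RefSeq symbols (GRCm38.p6). The brightest probe stood for a gene, and a gene entered the test where both arrays of at least 1 group were well above background (22351 genes). Limma 3.58.1 in R 4.3.3 was fitted to the 6 groups with culture as a block, which leaves 5 residual degrees of freedom, with Benjamini-Hochberg adjustment and a threshold of 0.05, and it was tested on simulated data. The culture block comes from the design, and deviations from group means correlated within cultures in all 15 pairs of groups (0.162 to 0.595). The study's general statement on statistics, written for data from 3 mice, names an unpaired t-test, while its array legends pick genes by a fold change passed in both cultures, with no test. The number of arrays limits the precision.

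The 10 genes and the lists were chosen with earlier results of these data known. Named are the 10 genes, Keap1, Nqo1, Nos2 and Arg1, list genes called in a genotype comparison, and the 3 genes nearest to Srxn1, Txnrd1, Prdx1 and Txnip. Of the WT responses, up to 3 of the largest called rises and falls are named for the partner list. For the smaller lists only some of the changes are named. Alternatives were quantile normalization, normexp background correction with an offset of 50, the authors' matrix, other filters, probe means, no block, a mouse block, other variances, only the groups compared, the methods' t-test, and each array left out. Promoters were searched in Python 3.11.15 and figures drawn with matplotlib 3.10.9.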

Additional observations from a re-analysis of the deposited data

How the results depend on the processing

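Over the alternatives, 1480 values of single genes were computed. Of these, 1337 kept their side of the threshold, 116 lost the call, 27 gained it and 0 called values changed sign. Among values that were not called, 55 changed sign. Counts below are called members of 10. Leaving out 1 array gave 0 to 3 in Con (4 in the full fit) and 0 to 2 in M2 (4) for KpCKO against WT, 2 in M1 (2), 0 for M2 against Con in WT (5) and in KpCKO (1), 6 to 7 for M1 against Con in WT (6) and 6 to 7 in KpCKO (7). With only the groups compared, the genotype counts were 0, 0 and 0, M2 against Con gave 3 in WT and 0 in KpCKO. The methods' t-test after adjustment gave 0 for each of the 7 comparisons of 2 groups but M1 against Con in WT (5); unadjusted it gave 4 for KpCKO against WT in M1 and 0 for M2 against Con in KpCKO. KpCKO against WT in M1 gave 4 with the filter on all 12 arrays and 4 with trended and robust variances. In both of these settings and in the unadjusted t-test, Prdx5 was among the called genes, as lower in KpCKO. Without culture as a replicate block, M2 against Con gave 0 in WT and 0 in KpCKO, the genotype counts were 3, 2 and 3, and M1 against Con gave 6 and 7. For M2 against Con, normexp gave 1 in WT and 0 in KpCKO, and no filter on dim probes gave 1 and 0. M2 against Con in KpCKO gave 4 with quantile normalization, all lower, 2 with the filter on all arrays, 0 with a mouse block and 3 with trended and robust variances. Over all genes it had 1272 called higher and 1023 lower in the main fit, and 1324 and 1286 after quantile normalization. With normexp it had 457 and 235. M2 against Con in WT had 1929 and 1841 in the main fit and 1029 and 648 with normexp. For the other alternatives in this section, counts over all genes are not given here. Both interactions gave 0 under every alternative run. Groups of 2 arrays limit all of these counts, and the causes of the changes were not tested. All 10 genes were well above background on every array, and the part of background signal in these changes was not tested.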
